A study of Mus musculus with 1 sample.

Results

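Cyclins and the regulators of mitosis that work with them were examined in wild-type mouse epiblast-like cells (EpiLCs). They comprise 10 genes chosen by name. Ccna2, Ccnb1 and Ccnb2 are taken here as the mitotic cyclins, Cdk1, Cdc20 and Plk1 as their partners, and Ccnd1, Ccnd2, Ccnd3 and Ccne1 as the G1 cyclins. A read counted for a gene when it had at least 7 sequencing passes and carried that gene's identifier in the GENCODE vM21 annotation. The 10 genes had 1884 of 701976 nuclear transcripts, with 721 in replicate 1 and 1163 in replicate 2. A gene was given a tail length from 10 transcripts on. This minimum was reached by 9 of the 10 genes, in each replicate on its own as well, and by 7146 of 12816 nuclear genes detected. Ccnd2 did not reach it.

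The cells were wild type, of the ICR strain, and had been differentiated for 24 h from embryonic stem cells (ESCs) in medium with activin A and bFGF. Poly(A) tails were read by PAIso-seq, which copies whole mRNAs with their tails into circular cDNA and sequences them on the PacBio platform. There was 1 sample, which held 2 replicates told apart by barcode. They are numbered by barcode, since the labels do not say which barcode is which replicate, and nothing says that they came from separate cultures, so their spread may be technical. Cnot8 knockout cells were not analysed here. Nuclear transcripts numbered 246316 in replicate 1 and 455660 in replicate 2, and their median tail was 91 nt in both. The formative markers Fgf5, Otx2, Dnmt3b and Pou3f1 were all detected, with 233 and 325 transcripts summed over the 4 genes. The core pluripotency markers Pou5f1 and Sox2 summed to 146 and 242. The naive pluripotency markers Klf4, Zfp42, Nanog, Esrrb, Tbx3 and Prdm14 summed to 154 and 402, of which Zfp42 alone had 129 and 372. Esrrb had 20 in each replicate, while Nanog had 3 and 7, Tbx3 2 and 2, Klf4 0 and 1, and Prdm14 0 and 0. Formative markers were thus present together with the naive markers Zfp42 and Esrrb, and the other naive markers had few transcripts or none. The mesoderm markers T, Mixl1 and Mesp1 were at 0 in both replicates, and the summed endoderm, trophoblast and fibroblast markers reached at most 1 transcript in a replicate. Neural markers had 7 transcripts in replicate 1 and 0 in replicate 2.

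A cyclin is the regulatory subunit that switches on a cyclin-dependent kinase (CDK), and several cyclins are made and destroyed at set times in the cell cycle. D-type cyclins work with Cdk4 and Cdk6 in G1, cyclin E with Cdk2 at entry into S phase, cyclin A2 in S phase and G2, and B-type cyclins with Cdk1 at entry into mitosis. Mouse pluripotent cells are known for a short G1 phase and fast division. The poly(A) tail of an mRNA binds poly(A)-binding proteins and is shortened by deadenylases before decay, and B-type cyclin mRNAs are classical examples of tail length control in oocytes.

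Tails of typical length are shown to make the sizes concrete. Each is an actual tail made of A alone whose length was nearest to the gene's geometric mean, in lower case and 5′ to 3′.
Ccna2: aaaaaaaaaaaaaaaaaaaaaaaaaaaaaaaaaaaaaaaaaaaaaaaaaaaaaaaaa
Ccnb1: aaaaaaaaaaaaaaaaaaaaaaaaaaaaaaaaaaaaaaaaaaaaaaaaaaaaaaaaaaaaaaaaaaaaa
Ccne1: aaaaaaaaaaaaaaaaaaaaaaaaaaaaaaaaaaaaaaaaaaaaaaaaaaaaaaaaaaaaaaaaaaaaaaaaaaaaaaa
Cdk1: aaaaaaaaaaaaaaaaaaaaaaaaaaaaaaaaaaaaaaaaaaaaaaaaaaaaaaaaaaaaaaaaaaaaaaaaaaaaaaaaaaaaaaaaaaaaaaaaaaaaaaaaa
They have 57, 69, 79 and 105 nt. The tail length of a gene is the geometric mean over its transcripts, in nt and with non-A bases included.

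The mitotic cyclins were examined first. All 3 had pooled tails below 75 nt, a length below which 47.4% of all 7146 tested genes fell. Ccna2, the cyclin of S phase and G2 (GRCm38 chromosome 3, 36564865 to 36572150), had the shortest tail of the 9 genes. It had 69.4 nt over 60 transcripts in replicate 1 and 53.7 nt over 165 transcripts in replicate 2, with 57.5 nt pooled (mean 61.6 ± 11.1, SD, n = 2). Ccna2 was thus much shorter in replicate 2. Ccnb1, the main cyclin B of mitosis (chromosome 13, 100778650 to 100786570), had 71.6 nt over 210 transcripts and 67.6 nt over 234 transcripts (69.6 ± 2.80, SD, n = 2). Ccnb2, the other somatic B-type cyclin (chromosome 9, 70407692 to 70421547), had 61.1 nt over 50 transcripts and 75.7 nt over 81 transcripts (68.4 ± 10.3, SD, n = 2). The replicate values of the 3 genes overlapped, so their order among themselves was not resolved. Ccna2 and Ccnb1 were below 75 nt in both replicates, as were 28.2% of the 4286 genes that reached 10 transcripts in both.

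Cdk1, the kinase that the B-type cyclins activate (chromosome 10, 69335146 to 69352938), had the longest tails. They had 104.6 nt over 54 transcripts in replicate 1 and 105.4 nt over 98 transcripts in replicate 2 (105.0 ± 0.609, SD, n = 2). Cdk1 was the 1 gene of the 10 above 100 nt, a length exceeded by 10.3% of all tested genes, and stood at percentile 93.5 of them. Neither replicate value of Cdk1 overlapped with that of any other member. Cdc20, the activator of the ubiquitin ligase APC/C that destroys cyclin B (chromosome 4, 118432901 to 118437352), had 78.4 nt over 110 transcripts and 74.6 nt over 217 transcripts (76.5 ± 2.69, SD, n = 2). Plk1, a kinase of mitotic entry and spindle assembly (chromosome 7, 122159439 to 122169873), had 71.5 nt over 60 transcripts and 95.8 nt over 40 transcripts (83.7 ± 17.2, SD, n = 2). The value of Plk1 therefore spanned the middle of the members' range, and it was the least settled of the 9.

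Among the G1 cyclins, Ccnd1 (cyclin D1, chromosome 7, 144929931 to 144939925) had 85.2 nt over 61 transcripts and 89.4 nt over 138 transcripts (87.3 ± 2.96, SD, n = 2). Some of its tails resemble a genomic run of A, and how many include that run was not measured, so its length is uncertain. Ccne1 (cyclin E1, chromosome 7, 38097984 to 38107534) had 77.1 nt over 77 transcripts and 80.2 nt over 152 transcripts (78.7 ± 2.18, SD, n = 2). Ccnd3 (cyclin D3, chromosome 17, 47505051 to 47599691) had 76.0 nt over 39 transcripts and 70.5 nt over 35 transcripts (73.2 ± 3.88, SD, n = 2). Ccnd2 (cyclin D2, chromosome 6, 127125162 to 127152193) had no transcript in replicate 1, where a count of 0, taken to allow up to 3 transcripts, allows up to 12.2 per 1000000 nuclear transcripts of the replicate (CPM). Its 3 tails in replicate 2 had 47, 56 and 195 nt. Replicates of Ccnd1, Ccne1 and Ccnd3 lay closer together than those of Ccna2, Ccnb2 or Plk1, and so did those of Ccnb1, Cdk1 and Cdc20.

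**Figure D1:**
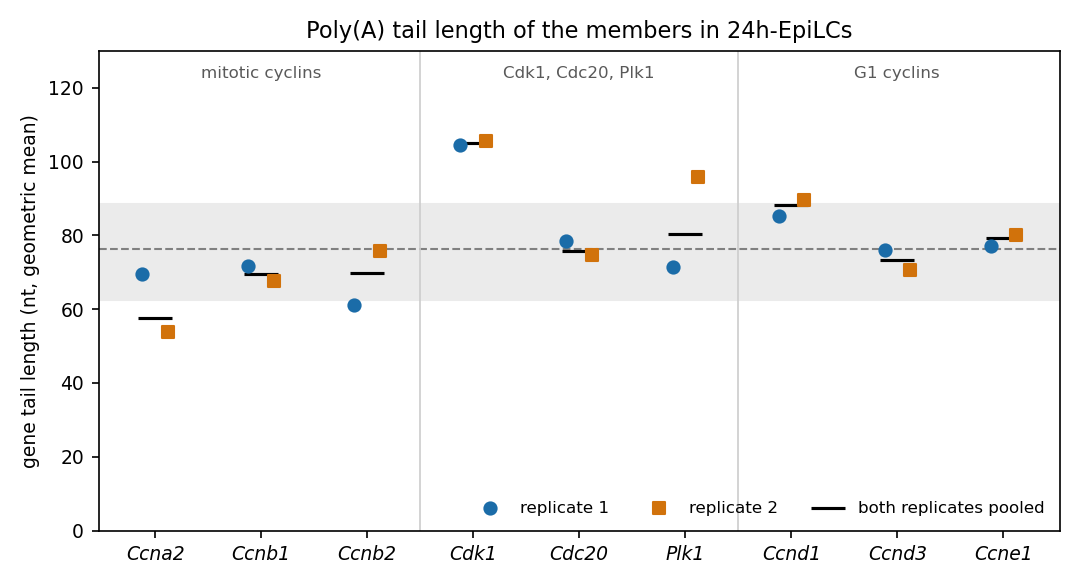
Gene tail length in nt (vertical axis, geometric mean over transcripts) of the 9 genes with at least 10 transcripts, with circles for replicate 1, squares for replicate 2 and a black dash for both pooled. The dashed line is the median of the 7146 tested genes, 76.4 nt, and the grey band spans their quartiles, 62.4 to 88.6 nt. Cdk1 lies above the band in both replicates, Ccna2 lies below it in replicate 2 and Ccnb2 in replicate 1, and the points of Ccna2, Ccnb2 and Plk1 are far apart.

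The classes were then compared, to ask whether cyclins of mitosis and of G1 differed in tail length. The median gene tail length was 69.5 nt for the mitotic cyclins and 79.2 nt for the G1 cyclins, a pooled difference of -9.69 nt. Replicate 1 gave -7.68 nt and replicate 2 gave -12.6 nt (mean -10.1 ± 3.47, SD, n = 2). The G1 cyclin was longer in 9 of 9 pairs of a mitotic and a G1 cyclin in the pooled values, and in 8 of 9 pairs in both replicates. Of all pairs of nuclear genes with 30 or more transcripts per replicate, 76.8% were in the same order in both replicates. The exception was Ccnd3 against Ccnb2, where the G1 cyclin was longer by 14.9 nt in replicate 1 and differed by -5.24 nt in replicate 2. In 7 of 9 pairs the replicate values did not overlap. Of the same pairs of nuclear genes, 68.5% did not overlap. As counts of a kept order and of values apart, 8 of 9 and 7 of 9 are near these shares. The shares take either direction, so they give no background for the G1 cyclin being the longer. The 9 pairs also share their genes, so they are not independent. With Cdk1, Cdc20 and Plk1 added to the mitotic cyclins, the pooled difference from the G1 cyclins came to -6.37 nt, and the replicates gave -5.59 and -5.07 nt. The G1 cyclin was then longer in 12 of 18 pairs in the pooled values and in 9 of 18 in both replicates. No test could be made of these differences: an exact permutation test that flips signs over 2 replicates cannot give less than p = 0.5, and genes and transcripts are not replicates of a condition.

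The size of the class difference moved with the way Ccnd1 was measured. With a run of 16 A that its 3′ untranslated region holds in the genome subtracted from every Ccnd1 tail, an alternative chosen after seeing the data, Ccnd1 came to 65.5 nt and the mitotic minus G1 difference to -3.86 nt (-6.53 and -2.86 nt in the replicates). Ccnd1 was then longer than 0 of the 3 mitotic cyclins in both replicates. With Cdk1, Cdc20 and Plk1 added, this subtraction gave -4.44 and 4.65 nt in the replicates, so the sign turned between them. Of Ccnd1 tails, 2.01% had at most 15 nt and cannot include the whole run, so for these the subtraction takes off too much. With Ccnd1 left out, the difference of the cyclins was -6.78 nt. Ccne2 (cyclin E2), the other E-type cyclin, is no member but had a shorter pooled tail than every mitotic cyclin, 25.6 nt over 31 transcripts, with 57.8 nt over 9 transcripts and 18.3 nt over 22 transcripts in the replicates. Of its transcripts, 29.0% had tails of at most 5 nt, against 2.32% of all nuclear transcripts and 0% for Ccne1. Ccne2 was named after its value was seen, and with it among the G1 cyclins the pooled difference was also -6.78 nt.

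In order of pooled tail length, the genes were Ccna2, Ccnb1, Ccnb2, Ccnd3, Cdc20, Ccne1, Plk1, Ccnd1 and Cdk1. Of the 8 neighbouring pairs in this order, the last pair alone had replicate values that did not overlap, with a gap of 15.1 nt between Ccnd1 and Cdk1. Neighbours in a sorted order are the closest pairs by construction. Of all 36 pairs of the 9 genes, 22 did not overlap. The share was 68.5% for pairs of nuclear genes with 30 or more transcripts per replicate. Together, the 9 genes sat near the middle of all tested genes. Their median of 75.8 nt differed from that of all tested genes by -0.567 nt pooled, and by -2.01 and -1.04 nt in the replicates. Below 75 nt were 4 of 9 members, close to the 47.4% of all tested genes. The 1517 genes with at least 100 transcripts had a higher median, 78.6 nt. Among them Ccnb1 stood at percentile 26.5 instead of 37.0, Ccna2 at 8.24 instead of 18.8 and Cdk1 at 93.4 instead of 93.5.

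The distribution of single tails was then examined, since a geometric mean can hide a subset of short tails. Tails of 6 to 30 nt made up 19.6% of Ccna2 transcripts (9 of 60 in replicate 1 and 35 of 165 in replicate 2) and 16.7% of Ccnb1 transcripts (15.2% and 17.9%). They made up 13.0% for Ccnb2 (16.0% and 11.1%), 12.5% for Cdc20 (10.9% and 13.4%) and 11 of 100 transcripts for Plk1 (13.3% and 7.50%). The share over all nuclear transcripts was 8.25% (8.62% and 8.05%). Ccna2, Ccnb1, Ccnb2 and Cdc20 were thus above the nuclear share in both replicates, and the lower bounds of the 95% Wilson intervals of Ccnb1, 11.01% and 13.6%, lay above it. The interval of Ccna2 in replicate 1, from 8.10% to 26.1%, did reach it. Cdk1 had only 1.97% of such tails (1.85% and 2.04%), or 3 of 152 transcripts. For the G1 cyclins the shares were 10.9% for Ccne1 (11.7% and 10.5%), 10.8% for Ccnd3 (10.3% and 11.4%) and 6.53% for Ccnd1 (9.84% and 5.07%), so Ccne1 and Ccnd3 were also above the nuclear share in both replicates. The nuclear share counts transcripts, not genes. How many of all tested genes were above it in both replicates was not measured, so these members are not set apart from other genes by it. Intervals cover counting error only, because reads carry no molecular identifiers.

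For long tails, Cdk1 and Ccna2 stood at opposite ends of the pooled values. Tails over 90 nt made up 71.1% of Cdk1 transcripts (70.4% and 71.4%), against 50.6% of nuclear transcripts in each replicate, and the lower bounds of Cdk1, 57.2% and 61.8%, lay above that share. Ccna2 had 36.9% of tails over 90 nt (36.7% and 37.0%). Its upper bounds, 49.3% and 44.6%, lay below the nuclear share. Ccnb1 had 45.3%, Ccne1 51.1% and Ccnd1 56.8%. Plk1 differed between replicates, with 35.0% and 60.0%.

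**Figure D2:**
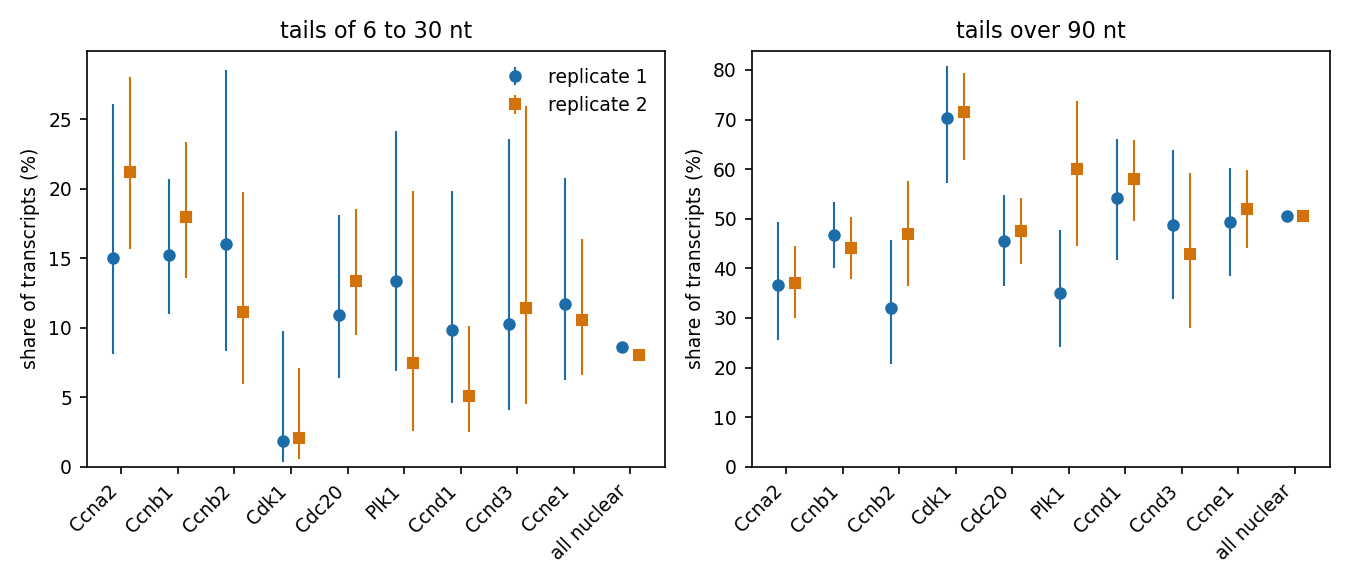
Share of transcripts in percent (vertical axes) with tails of 6 to 30 nt (left) and over 90 nt (right) for the 9 genes and all nuclear transcripts, with circles for replicate 1, squares for replicate 2 and bars for 95% Wilson intervals of counting error. Cdk1 is lowest on the left at 1.85% and 2.04% and highest on the right at 70.4% and 71.4%, and the Plk1 points on the right are the farthest apart, at 35.0% and 60.0%.

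Taken over all transcripts of a class, the mitotic cyclins had 15.3% and 17.9% of tails of 6 to 30 nt in replicates 1 and 2, and the G1 cyclins 10.7% and 8.31%. The difference was 7.09 ± 3.56 percentage points (SD, n = 2). Tails over 90 nt made up 42.5% and 42.1% for the mitotic cyclins and 50.8% and 53.5% for the G1 cyclins, a difference of -9.90 ± 2.20 percentage points (SD, n = 2). Ccnb1 weighed most in these shares, with 444 of the 800 transcripts of the mitotic cyclins. Tails of at most 5 nt were seen in replicate 2 alone for the members, at 3.03% of Ccna2 transcripts and 1.28% of Ccnb1 transcripts there, while all nuclear transcripts had 1.52% of them in replicate 1 and 2.75% in replicate 2.

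**Figure D3:**
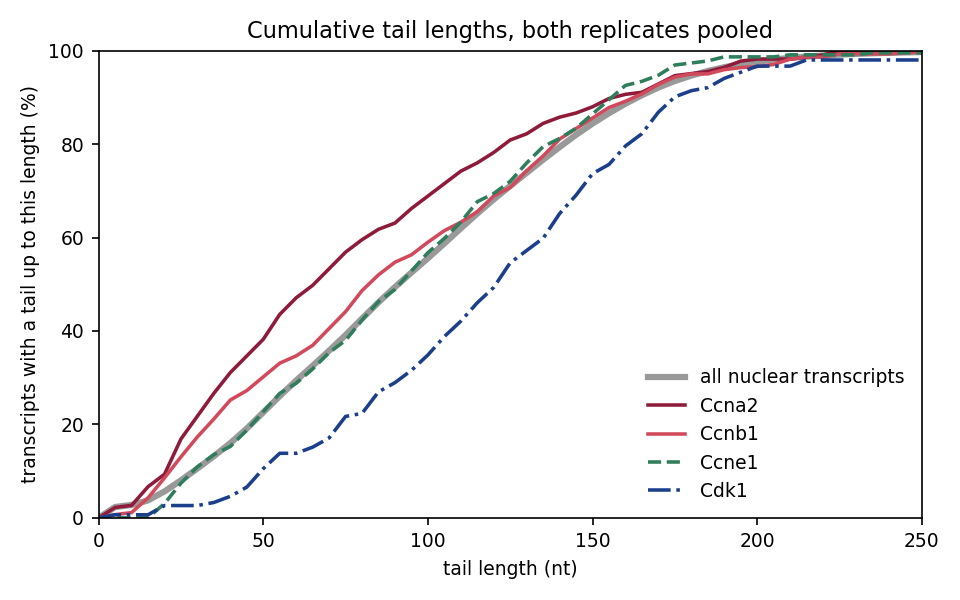
Percent of transcripts (vertical axis) with a tail up to the length in nt on the horizontal axis, both replicates pooled, for Ccna2, Ccnb1, Ccne1, Cdk1 and all nuclear transcripts. At 60 nt the curves stand at 47.1% for Ccna2, 34.7% for Ccnb1, 28.8% for Ccne1, 13.8% for Cdk1 and 29.4% for all nuclear transcripts, so Ccne1 lies nearest to the nuclear curve there and Ccna2 and Cdk1 lie on opposite sides of it.

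The bases at the end of short tails were examined next. Terminal uridylyl transferases add U to short tails of mRNAs that are being degraded, and a U is read as T in cDNA. The short tails of Ccnb1 and Ccne1 that end in T are shown because they are the most frequent among the members, with the final T in capitals. For each gene and replicate they are the 2 tails of up to 30 nt with the longest final run of T.
Ccnb1, replicate 1: aaaaaaaaaaaaaaaaaaaTT
Ccnb1, replicate 1: aaaaaaaaaaaaaaaaaaaTT
Ccnb1, replicate 2: aaaaaaaaaaaaaaTTT
Ccnb1, replicate 2: aaaaaaaaaaaaaaaTTT
Ccne1, replicate 1: aaaaaaaaaaaaaaaaTTT
Ccne1, replicate 1: aaaaaaaaaaaaaaaaaaaaaaaaaaaaT
Ccne1, replicate 2: aaaaaaaaaaaaaaaaaaaT
Ccne1, replicate 2: aaaaaaaaaaaaaaaaaaaaaaT
Of the Ccnb1 tails of 6 to 30 nt, 16 of 74 ended in T, or 21.6% (95% Wilson interval 13.8% to 32.3%). The same share over all nuclear transcripts was 15.2%, inside that interval. The replicates differed in direction. In replicate 1, Ccnb1 had 12.5% (4 of 32) against a nuclear share of 18.3%, and in replicate 2 it had 28.6% (12 of 42, interval 17.2% to 43.6%) against 13.4%. A difference that held in both replicates was thus not seen. Among tails of up to 30 nt ending in T, 2 or more T were found in 68.8% for Ccnb1 (11 of 16) and in 49.1% over all nuclear transcripts, and none ended in more than 3. Ccne1 had 5 of 25 such tails ending in T, Ccna2 3 of 44, Cdc20 2 of 41, Ccnb2 2 of 17 and Ccnd1 2 of 13. Plk1, Cdk1 and Ccnd3 had none among 11, 3 and 8, numbers that allow little to be seen. Among Ccnb1 tails longer than 30 nt, 1.36% ended in T.

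Non-A bases anywhere in the tail were found in 9.89% of the members' transcripts (11.4% and 8.97%), against 10.5% of nuclear transcripts (12.2% and 9.55%). In the pooled values Ccnd1 was highest at 17.1% (16.4% and 17.4%) and Cdk1 lowest at 4.61% (7.41% and 3.06%). In replicate 1 alone, Ccnb2 with 20.0% and Ccnd3 with 17.9% were above Ccnd1, and Plk1 with 6.67% was below Cdk1.

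A recurrent pattern was seen in Ccnd1. A stretch of A was interrupted by C, or by CAGG, and A then went on. The 4 tails that held CAGG inside the run of A are shown in order of length, with CAGG in capitals.
Ccnd1, replicate 1: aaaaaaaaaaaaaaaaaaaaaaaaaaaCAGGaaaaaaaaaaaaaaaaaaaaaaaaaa
Ccnd1, replicate 2: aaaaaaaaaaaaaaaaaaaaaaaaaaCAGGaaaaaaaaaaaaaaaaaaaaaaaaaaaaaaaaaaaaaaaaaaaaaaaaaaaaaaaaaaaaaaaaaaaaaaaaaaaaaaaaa
Ccnd1, replicate 2: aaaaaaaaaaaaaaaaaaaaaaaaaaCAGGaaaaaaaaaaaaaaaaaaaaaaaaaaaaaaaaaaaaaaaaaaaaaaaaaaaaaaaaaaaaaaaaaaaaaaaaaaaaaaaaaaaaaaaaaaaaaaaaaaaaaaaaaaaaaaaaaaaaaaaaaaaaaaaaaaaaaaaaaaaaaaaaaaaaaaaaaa
Ccnd1, replicate 2: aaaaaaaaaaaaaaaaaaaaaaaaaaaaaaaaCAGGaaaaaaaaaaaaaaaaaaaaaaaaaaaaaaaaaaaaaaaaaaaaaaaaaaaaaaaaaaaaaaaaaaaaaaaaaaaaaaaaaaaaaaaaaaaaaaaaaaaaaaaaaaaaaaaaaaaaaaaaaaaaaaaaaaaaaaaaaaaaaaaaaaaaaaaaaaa
The annotated 3′ untranslated region (3′UTR) of Ccnd1 holds a genomic run of 16 A followed directly by CAGG. The run starts 707 nt before the annotated end of the transcript, at chr7:144930614-144930643 on the minus strand of GRCm38, and is shown with the run and CAGG in capitals.
Ccnd1, 3′UTR: tattccAAAAAAAAAAAAAAAACAGGttcc
The run before CAGG was longer in the 4 tails, at 26, 26, 27 and 32 A. The reference is of another mouse strain than these cells. An inner C as the first non-A base, at positions 17 to 40 from the start of the tail and followed by A, was found in 16 of 199 Ccnd1 transcripts, or 8.04%, with 2 of 61 in replicate 1 and 14 of 138 in replicate 2. Over all nuclear transcripts this share was 0.596%. Among the 1517 genes with at least 100 transcripts, no other gene reached the share of Ccnd1 (median 0.565%). These positions were chosen after the sequences were seen. The processing extended tails into A tracts of the alignment, and the table holds no alignment position, so the number of Ccnd1 tails that include the genomic run was not measured.

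No other member with a tail length had such a run. The longest run of A in the annotated 3′UTR was 3 to 7 nt in the other 8 genes. Of 6751 tested protein-coding genes, 1013 had one of at least 10 nt, and 226, or 3.35%, had one at least as long as that of Ccnd1. At the annotated end, Cdk1 had 4 genomic A and the other members 0 to 2. The ends of the gene with the longest and of the gene with the shortest tails are shown, with the polyadenylation signal in capitals, at chr10:69335146-69335175 and chr3:36564865-36564892 on the minus strand of GRCm38.
Cdk1, 3′ end: ggAATAAAaggattattcacaaacagaaaa
Ccna2, 3′ end: taAATAAAgcatgcaaattaacccttta
AATAAA stood in the last 40 nt of 9 of the 10 annotated main transcripts and of 62.7% of the 6751 genes, and Plk1 had the variant ATTAAA, as did 17.2%. TTTTAT, a form of the cytoplasmic polyadenylation element known from oocyte cyclin mRNAs, occurred on the sense strand in the last 200 nt of Ccnb2 and Cdc20 and of 24.0% of the 6751 genes. Ccnb1 held no TTTTAT in that window, and other forms of the element were not sought. TGTANATA, the Pumilio motif with N for any base, occurred in Ccna2 and in 8.09% of genes. ATTTA occurred in Ccnb1 and Cdk1 and in 34.2% of genes. Annotated 3′UTRs ranged from 62 nt in Cdc20, so that its window reaches into the coding sequence, to 5173 nt in Ccnd2, against a median of 992 nt. A match is a match of letters, and which annotated end the reads used is not recorded in the table.

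Transcript numbers were compared between replicates as CPM, transcripts per 1000000 nuclear transcripts. In a bulk sample, fewer cells in a phase of the cycle and less RNA per cell cannot be told apart. Ccnb1 had 853 CPM in replicate 1 and 514 in replicate 2, a ratio of 0.602 (95% interval of counting error 0.498 to 0.729). Plk1 had 244 and 87.8 CPM, a ratio of 0.360 (0.235 to 0.547), and Ccnd3 had 158 and 76.8, a ratio of 0.485 (0.298 to 0.786). Ccna2 differed the other way, with 244 and 362 CPM, a ratio of 1.49 (1.10 to 2.03). For these 4 of 9 genes the interval left out 1, as it did for 42.9% of the 1517 genes with at least 100 transcripts, so the count is near the background. Cdk1, with 219 and 215 CPM, Cdc20, with 447 and 476, Ccne1, with 313 and 334, Ccnb2, with 203 and 178, and Ccnd1, with 248 and 303, had intervals that included it. Of the 1517 genes, 1.32% had a lower ratio than Plk1, 4.15% a lower one than Ccnd3 and 8.83% a lower one than Ccnb1, while Ccna2 stood at percentile 84.6. Levels and tail lengths did not differ in the same genes throughout. Tails lay far apart between replicates in Ccna2 and Plk1, whose levels differed, but also in Ccnb2, whose level interval included 1, and they lay close in Ccnb1 and Ccnd3. Summed markers of naive pluripotency (5 of 6 detected) stood at 625 and 882 CPM, and those of the formative state (4 of 4) at 946 and 713. Zfp42 gave 129 and 372 of the 154 and 402 naive transcripts, while Esrrb had 20 in each replicate. In the formative sum, Dnmt3b had 148 and 151 transcripts and Otx2 48 and 112, against 246316 and 455660 nuclear transcripts. The genes of each sum thus did not all move the same way. The part of these markers in the results was not tested.

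**Figure D4:**
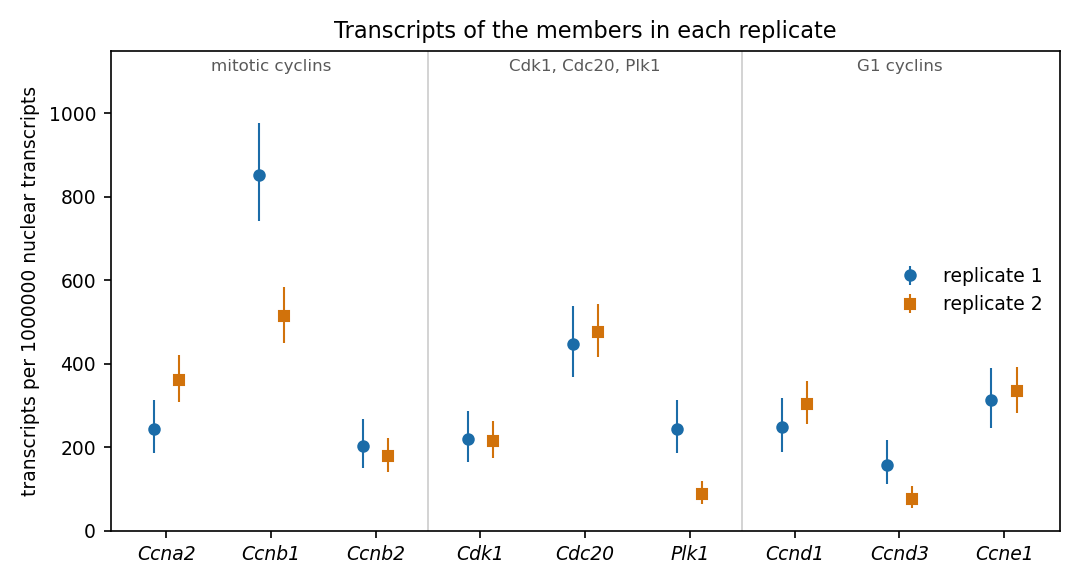
CPM, transcripts per 1000000 nuclear transcripts (vertical axis) of the 9 genes, with circles for replicate 1, squares for replicate 2 and bars for exact 95% Poisson intervals of counting error. Ccnb1 stands at 853 and 514 and Plk1 at 244 and 87.8, while both points of Cdk1 lie together at 219 and 215.

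Copies of the genes elsewhere could take reads from them. Ccnb1 had 7 annotated pseudogenes with at least 85% identity over 200 nt or more, and Ccnb1-ps and Gm12856 had 1 transcript each while the other 5 had 0. The pseudogene copies of Cdc20, Plk1 and Ccnd3 had 0. Ccna2, Cdc20, Ccnd1 and Ccnd3 overlap a gene on the opposite strand with transcripts of its own, Exosc9 (69 transcripts), Elovl1 (11), LTO1 (1) and Bysl (128). The sources used here do not say whether genes were assigned by strand, so the values of Ccna2 and Ccnd3 are uncertain to that extent.

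Other genes of the cell cycle were described by lists of 100 genes, of which 96 were detected and 83 had at least 10 transcripts. Their median gene tail length was 71.6 nt, and 51 of the 83, or 61.4%, were below 75 nt, against 47.4% of all tested genes. Genes of the spindle and chromosomes had the lowest median of the lists with more than 1 gene tested, 64.1 nt over 15 genes, with 10 of 15 below 75 nt. Their shortest was Kif11, the kinesin that pushes spindle poles apart, with 45.7 nt and 33.0 nt in replicates 1 and 2. Of Kif11 transcripts, 11.6% had tails of at most 5 nt, which lower a geometric mean, against 2.32% of all nuclear transcripts. The longest of this list was Birc5, the survivin subunit of the chromosomal passenger complex, with 102.9 nt and 94.2 nt. Birc5 and Aurkb, the kinase of the same complex and the longest of the mitotic kinases and checkpoint genes with 95.4 nt and 87.4 nt, were thus both above the median of all tested genes. Nek2, a centrosomal kinase, had 67.1 nt and 51.0 nt, the shortest of the 11 genes of that list that reached 10 transcripts in both replicates. Of all 12 tested there, 8 were below 75 nt.

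Among the CDKs other than Cdk1, Cdk4, the partner of the D-type cyclins, had the longest tails, with 99.2 nt over 153 transcripts and 97.4 nt over 230 transcripts (98.3 ± 1.28, SD, n = 2). Cdk12, a kinase of RNA polymerase II, had the shortest, with 49.1 nt and 37.6 nt. Tails of at most 5 nt made up 17.2% of its 29 transcripts. Of the 8 CDKs, 4 were below 75 nt. Of the genes that switch Cdk1 on or off, Wee1, its inhibitory kinase, was shortest, with 62.6 nt and 39.7 nt, and Cks2, a small subunit of Cdk complexes, longest with 103.5 nt and 71.8 nt. In the APC/C list 8 of 17 genes were below 75 nt. Its subunits ranged from Anapc1, the scaffold, with 74.0 nt and 43.5 nt, to Anapc11, the catalytic RING subunit, with 88.4 nt and 114.3 nt. Replicates of Wee1, Cks2 and Anapc1 lay far apart, and each had fewer than 30 transcripts in replicate 1. Tails of at most 5 nt made up 8.25% of Anapc1 transcripts and 2.0% of Wee1 transcripts, and Nek2 had none.

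All 13 other cyclins tested were below 75 nt in the pooled values, as were 47.4% of all tested genes. The replicates did not bear this out gene by gene. Of the 7 with 10 transcripts in both replicates, 1 was below 75 nt in both, against 28.2% of all such genes. Among the 7 that reached 10 transcripts in both replicates, the range ran from Ccng1, with 73.9 nt and 66.7 nt, to Ccnk, a partner of Cdk12, with 97.6 nt and 58.8 nt. In the G1/S list 6 of 12 genes were below 75 nt. Among the 7 that reached 10 transcripts in both replicates, tails ran from Cdc6, a loader of replication origins, with 68.1 nt and 67.7 nt, to Gmnn (geminin), with 68.6 nt and 94.5 nt. All 7 CDK inhibitors had transcripts, but Cdkn1c alone, named after its value was seen, had at least 10, with 24 transcripts and 73.4 nt pooled.

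**Figure D5:**
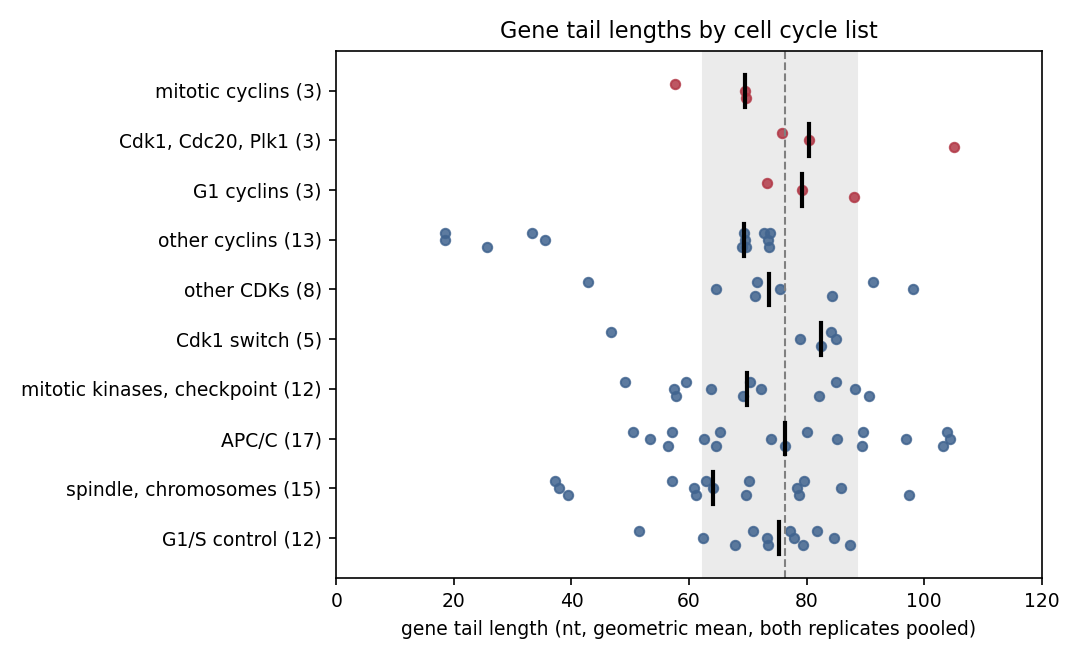
Gene tail length in nt (horizontal axis, both replicates pooled) of genes with at least 10 transcripts in each cell cycle list, with the number of genes in brackets, members in red, other genes in blue and a black bar at the list median. The dashed line is the median of all tested genes, 76.4 nt, and the grey band spans their quartiles. The spindle and chromosome genes have their bar at 64.1 nt. The 5 other cyclins below 40 nt each had fewer than 10 transcripts in replicate 1, and 11.8% to 33.3% of their pooled tails had at most 5 nt.

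The genes with the most similar tail distributions were sought among 73 other cell cycle genes with at least 30 transcripts, by the largest gap between cumulative distributions on a scale from 0 to 1. For Ccnb1, the nearest were Tpx2 (gap 0.0477), a spindle assembly factor, Kif20a (0.0563), a kinesin of cytokinesis, and Ccng1 (0.0583). Cdc20 ranked next at 0.0659 and Ccnb2 eighth at 0.0761, while Cdk1 ranked 71 of 73 at 0.266. For Ccne1, the nearest were Nusap1 (0.0648), a microtubule binder of the spindle, Ccnf (0.0655) and Bub1 (0.0666), a checkpoint kinase. Ccna2 ranked 58 of 73 and Cdk1 66 of 73, so both lay far from Ccne1, on opposite sides. Gaps between genes with few transcripts are larger from counting alone.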

How the data were processed

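PAIso-seq reads of wild-type 24h-EpiLCs were analysed, with 2 replicates in 1 sample. The authors made circular consensus reads, split them by barcode, mapped them to mm10 with minimap2 (version 2.17), removed repetitive reads, took the 3′ soft clip as the tail, extended it into A tracts, discarded reads without a tail and used featureCounts (version 2.0.1) to name the gene of each. The authors' deposited table holds, per read, a barcode, a gene, passes, the tail sequence and counts of its A, T, C, G and non-A bases, none of them normalized. The base counts matched the sequence in every read.

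Reads with at least 7 passes on nuclear genes were used, which were 246316 and 455660 transcripts. Tail length was A plus non-A bases. Genes were placed with GENCODE vM21, whose GRCm38 build is that of mm10. Gene tail length was the geometric mean over at least 10 transcripts. The members and lists were chosen with earlier results of these data known. Named were all members, the longest and shortest gene of each list that reached 10 transcripts in both replicates, and the 3 genes nearest to Ccnb1 and Ccne1. Sequence motifs were sought on the sense strand of 1 main GENCODE transcript per gene, and copies with minimap2 (version 2.31). With 1 group, no test was made. Shares have 95% Wilson intervals and counts exact Poisson intervals. Fewer reads fell below 7 passes for Cdc20 (4.39%) than for Ccnb1 (11.6%), against 6.84% of nuclear reads. Alternatives changed the pass filter, tail definition, shortest tail, summary per gene and class, transcript minimum, wells, replicates and class members. Scripts were checked on simulated tails. Scripts ran in Python 3.11.15 with scipy 1.17.1, pandas 2.3.3 and numpy 2.4.6, and figures were drawn in matplotlib 3.10.9.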

Additional observations from a re-analysis of the deposited data

How the results depend on the processing

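No paired analysis was possible because these cells form 1 group. The mitotic minus G1 cyclin difference was negative in all 21 alternatives run, from -15.7 to -3.86 nt, and moved by less than 1 SD of the replicates in 17 of them. It moved to -14.0 nt with medians over transcripts, -15.7 nt with all transcripts of a class together, -14.6 nt with the mean of log2 gene lengths and -3.86 nt with the genomic A run taken off Ccnd1. The 17 include the minima of 5 and 20 transcripts and of 10 in each replicate, which kept the same genes and so the same value. Leaving out a replicate gave -12.6 to -7.68 nt, the values from which that SD was taken, so it is no separate check.

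With Cdk1, Cdc20 and Plk1 added, the pooled difference was also negative in all 21. It was -7.51 nt with no minimum of passes, -5.47 nt with at least 8 and -5.66 nt with at least 15 passes, -5.50 nt for tails of at least 6 nt and -3.09 nt of at least 15 nt. Medians over transcripts gave -8.50 nt, arithmetic means -2.03 nt, all transcripts together -8.89 nt, the mean of log2 lengths -4.93 nt and wells with 1 transcript -5.65 nt. It was -7.94 nt without Ccne1, -3.45 nt without Ccnd1 or with Ccne2 among the G1 cyclins, -9.38 nt without Cdk1 and -0.536 nt with the A run taken off, which gave -4.44 and 4.65 nt in the replicates. Leaving out a replicate gave -5.59 to -5.07 nt.

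The members minus all genes difference had no stable sign. It was 0.0327 nt with all transcripts together, 5.85 nt with the mean of log2 lengths, 0.185 nt for wells with 1 transcript and 0.336 nt against protein-coding genes only. It was -5.37 nt for tails of at least 6 nt, -5.57 nt of at least 15 nt, -5.00 nt with medians over transcripts, -1.39 nt where both replicates reached 10 transcripts and -3.05 nt with the A run taken off. Leaving out a replicate gave -2.01 to -1.04 nt. The cause was not tested.

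Cdk1 was the longest of the 9 genes in 11 of 11 alternatives run on single genes, and Ccna2 the shortest in 10, the exception being Ccnb2 at 61.1 nt without replicate 2. Non-A bases were in 6.91% of the members' tails, down from 9.89%, when neither end base was counted. The settings without Cdk1, without Ccnd1, with Ccne2, with the A run taken off and against protein-coding genes were chosen after seeing the data. Depth limits Ccnd3, with 74 transcripts, and Ccnd2, with 3.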
